A study of Mus musculus with 12 samples.

Results

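The response of Rictor+/+ mouse embryonic fibroblasts (MEFs) to interferon-alpha (IFN-alpha) was read from 6 of the 12 arrays of the series. The columns were chosen by their labels: arrays 2, 6 and 10 came from cells given mouse IFN-alpha at 2500 U/ml for 24 hours, and arrays 1, 5 and 9 from untreated cells of the same genotype. The other 6 arrays, from Rictor-/- MEFs that were untreated (arrays 3, 7 and 11) or given the same dose for the same time (arrays 4, 8 and 12), entered the statistical fit, and their response was compared for the genes named. Biotin-labelled total RNA was read on Illumina mouse BeadChips. The series title places the question in how Rictor complexes act in interferon signalling and in the restraint of growth.

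All cells were immortalized MEFs grown in serum-supplemented DMEM with gentamycin. The labels name 1 line for each genotype and mention no separate cultures behind the arrays, so each p-value measures only the spread between these arrays. A treatment field shared by all samples mentions small interfering RNAs against Rictor, while the genotype field gives a knockout; the genotype field was followed.

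Type I interferons bind a receptor of Ifnar1 and Ifnar2, whose kinases Jak1 and Tyk2 phosphorylate Stat2. Stat2 and Irf9 are parts of the factor ISGF3, which binds the interferon-stimulated response element (ISRE), in essence a pair of GAAA blocks held apart by a spacer of 2 bases, in the promoters of interferon-stimulated genes. The best known of these genes block viruses, present antigen and sense nucleic acids; many others act in ubiquitin-like tagging, nuclear bodies, lipid transfer, cell death and the signalling between cells. Rictor is a subunit of mTOR complex 2, a kinase complex upstream of Akt.

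Promoter sequences are shown for 7 genes, to set the 3 largest rises outside the classical lists whose window held the ISRE letters beside the 2 largest rises whose window did not and the 2 largest falls with a window. Each window runs from 250 bases before the transcription start to 50 after it, as given by RefSeq for GRCm38.p6, and is written 5′ to 3′ in the sense of the gene. Capitals mark GAAA, any 2 bases and GAAA again, on either strand; on the opposite strand they read as a pair of TTTC blocks. The windows are Cxcl10 at chr5:92348840-92349139 (minus strand), Trim30a at chr7:104465144-104465443 (minus strand), Gm12250 at chr11:58183593-58183892 (plus strand), Phf11d at chr14:59365441-59365740 (minus strand), Mpeg1 at chr19:12460520-12460819 (plus strand), Egln3 at chr12:54203825-54204124 (minus strand) and Lockd at chr6:134928842-134929141 (plus strand).
Cxcl10: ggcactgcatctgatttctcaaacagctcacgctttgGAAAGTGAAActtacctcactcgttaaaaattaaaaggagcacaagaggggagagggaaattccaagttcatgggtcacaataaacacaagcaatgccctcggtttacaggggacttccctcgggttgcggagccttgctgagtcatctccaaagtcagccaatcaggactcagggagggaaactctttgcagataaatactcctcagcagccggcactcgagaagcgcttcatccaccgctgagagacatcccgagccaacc
Trim30a: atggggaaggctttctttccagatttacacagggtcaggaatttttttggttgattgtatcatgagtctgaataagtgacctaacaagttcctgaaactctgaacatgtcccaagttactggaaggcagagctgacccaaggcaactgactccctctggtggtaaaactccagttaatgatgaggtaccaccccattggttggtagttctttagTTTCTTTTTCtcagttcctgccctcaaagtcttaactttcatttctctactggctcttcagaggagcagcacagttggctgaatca
Gm12250: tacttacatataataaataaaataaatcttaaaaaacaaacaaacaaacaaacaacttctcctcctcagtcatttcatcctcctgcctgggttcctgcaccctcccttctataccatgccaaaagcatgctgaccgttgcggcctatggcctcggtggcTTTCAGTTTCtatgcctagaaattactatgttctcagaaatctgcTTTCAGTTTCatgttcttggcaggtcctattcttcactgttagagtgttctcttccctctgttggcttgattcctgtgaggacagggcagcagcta
Phf11d: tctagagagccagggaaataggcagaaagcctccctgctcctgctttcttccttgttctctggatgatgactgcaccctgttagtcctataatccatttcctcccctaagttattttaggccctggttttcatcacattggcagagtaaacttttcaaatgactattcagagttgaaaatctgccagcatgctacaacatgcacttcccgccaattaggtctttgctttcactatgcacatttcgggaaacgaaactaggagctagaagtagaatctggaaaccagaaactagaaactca
Mpeg1: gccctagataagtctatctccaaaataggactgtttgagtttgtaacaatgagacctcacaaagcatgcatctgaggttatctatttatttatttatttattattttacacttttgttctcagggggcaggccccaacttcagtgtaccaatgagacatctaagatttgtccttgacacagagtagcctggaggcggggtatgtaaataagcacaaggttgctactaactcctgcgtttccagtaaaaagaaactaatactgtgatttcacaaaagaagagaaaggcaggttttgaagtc
Egln3: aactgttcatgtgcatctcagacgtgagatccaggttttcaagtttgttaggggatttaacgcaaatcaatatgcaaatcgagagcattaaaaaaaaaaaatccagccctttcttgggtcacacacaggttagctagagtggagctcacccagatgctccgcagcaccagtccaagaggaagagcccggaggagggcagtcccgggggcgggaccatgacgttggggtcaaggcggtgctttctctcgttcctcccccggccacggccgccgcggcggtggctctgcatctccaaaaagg
Lockd: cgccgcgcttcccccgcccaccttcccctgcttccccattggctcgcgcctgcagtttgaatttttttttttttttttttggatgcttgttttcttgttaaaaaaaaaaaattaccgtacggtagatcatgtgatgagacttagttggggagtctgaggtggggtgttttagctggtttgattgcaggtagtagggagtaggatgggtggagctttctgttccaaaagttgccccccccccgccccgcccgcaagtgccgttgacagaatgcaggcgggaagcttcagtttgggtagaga
In the Cxcl10 window the match began at position -213, counted back from the transcription start, on the strand of the gene. Trim30a held 1 match at -36 and Gm12250 held 2, at -91 and -46, all on the opposite strand. The other 4 windows held none, which says only that these letters are not in these windows.

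Of 45281 probes, 20865 exceeded background on 3 or more arrays of the 12, and 11874 of these named a gene. With the brightest probe standing for each gene, 8277 named genes and 8991 unnamed probes were tested. The 6 Rictor+/+ arrays had total signals of 39160400 to 61978100 and 34.2% to 46.9% of probes above background. Their background fell into 2 levels, with a modal signal of 215 to 240 on arrays 1, 2, 5 and 6 and of 108 to 115 on arrays 9 and 10; over the series arrays 1 to 6 had the high and arrays 7 to 12 the low level, a split by array number that the labels do not describe. The first principal component of the 6 arrays, with 43.9% of the variance, separated treated from untreated arrays; the second, with 30.3%, set array 1 (untreated) and array 10 (IFN-alpha) apart from the other 4. All 10 fibroblast markers listed, among them Col1a1, Vim and Pdgfra, were above background on all 6 arrays. The Rictor probe lay near background on the 3 untreated arrays, at 5.31, 6.58 and 6.89 (log2 normalized signal), and its mean was 6.26 on untreated Rictor+/+ and 6.52 on untreated Rictor-/- arrays. Its position relative to the deletion is not given in the sources used here, so this probe does not check the genotype.

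IFN-alpha raised 292 named genes and lowered 42 (limma, adjusted p under 0.05). These are 3.53% and 0.507% of the 8277 named genes, and the median log2 change of all named genes was -0.05. The rises were also larger: 161 genes rose 4-fold or more, 54 of them 16-fold or more, while no gene fell 4-fold. On all 3 untreated arrays 62 of the raised genes lay below background, 46 did so on 1 or 2 arrays, and 184 were above background throughout. In each of the 292 raised genes the 3 treated arrays were higher than the 3 untreated ones, against 8.87% of all named genes; in each of the 42 lowered genes they were lower, against 8.31%. Of the 8991 unnamed probes, another 75 were raised and 12 lowered, so the shares among named genes are not shares of all probes. Within the 4 arrays of high background 202 genes rose and 10 fell, between the 2 arrays of low background 122 rose and 3 fell, and with the background level as a block the counts were 300 and 45. In the low level each group had a single Rictor+/+ array. The spread for both levels was pooled over the groups with 2 arrays, which were Rictor+/+ at the high level and Rictor-/- at the low level. All 292 raised and 42 lowered genes kept their direction in each of these fits, which their lack of overlap fixed in advance. A total of 112 called genes had other probes above background, 158 in all. Some of these changed more than the probe used, such as 3.62 and 3.76 against 0.99 for Irgm1. Of the 158, 4 had the opposite sign, 1 each for Gca, Ifitm1, Il15 and Tbrg1. Another 26 had the same sign with less than 0.5 times the log2 change; of these, Azi2 had 0.39 against 1.18, Tor1aip1 0.65 against 1.94, Casp4 1.16 against 2.58, Dbi -0.37 against -1.13, Lsm6 -0.29 against -1.06 and Sirpa -0.30 against -0.87, and others are given beside their gene.

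**Figure D1:**
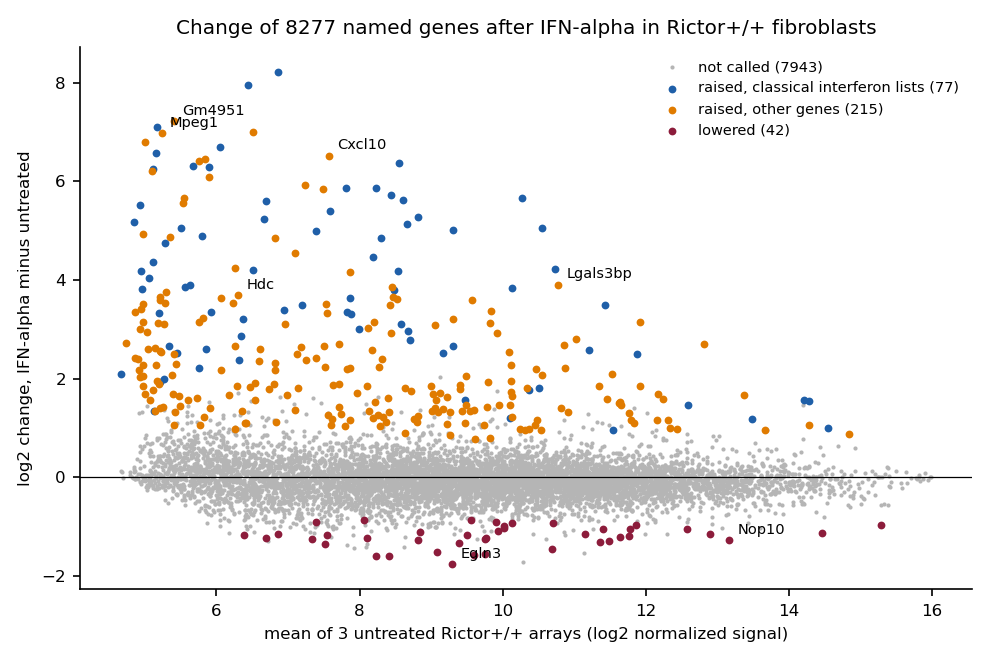
Each point is 1 of 8277 named genes, with its mean log2 normalized signal on the 3 untreated Rictor+/+ arrays on the horizontal axis and its log2 change after IFN-alpha on the vertical axis. The 292 raised genes reach a change of 8.23, and the lowest of the 42 lowered genes, in dark red, is Egln3 at -1.77.

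A total of 77 raised genes belonged to the 5 classical interferon lists and 215 did not. In the classical lists 35 of 77 rose at least 16-fold, and the median log2 change of the 77 was 3.81. Outside them 19 of 215 rose at least 16-fold, 78 rose 4- to 16-fold, 106 rose 2- to 4-fold and 12 rose less, with a median of 1.85. These bands use the fitted change, which for the 44 genes below background on all untreated arrays depends on the background. Of the 215 genes, 133 were in none of the 35 lists, and 7 of those rose at least 16-fold. These 7 were Hap1, Nrap and, from families that the classical lists cover, Gm12250, Gm8909, Ifit1bl1, Ifi207 and Ifi213. Other relatives of classical genes, such as Oas1d, Ifi214 and Ifit1bl2, are also counted among the 215, since the lists do not hold every family member.

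The classical lists serve as the reference. Antiviral effectors were raised in 27 of 31 measured genes (median log2 change 3.85), interferon-induced GTPases in 13 of 14 (4.38), genes of antigen presentation by MHC class I in 19 of 23 (2.51), sensors of nucleic acids in 10 of 14 (3.35) and genes of interferon signalling in 8 of 21 (0.48). Usp18, the protease that removes Isg15 and dampens the receptor, had log2 signals of 7.48, 6.50 and 6.61 on untreated arrays 1, 5 and 9 and of 15.29, 14.99 and 14.99 on treated arrays 2, 6 and 10, a 300-fold rise (log2 change 8.23, SE 0.36, adjusted p = 2.12e-08). Its treated levels were close to the top of the scale, where whether a signal is saturated was not tested. This also holds for the treated levels of Ly6e and Ifitm3, for the untreated levels of Mt1 and for Lgals3bp on array 2.

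The members that were not called fell into several kinds. Ifi27 was bright throughout, at 12.03, 11.40 and 11.67 untreated and 11.53, 11.43 and 11.71 treated (log2 change -0.14, adjusted p = 0.967). Ifitm3, a membrane protein that blocks viral entry, was brighter still, at 14.03, 14.16 and 14.39 untreated and 15.81, 15.80 and 15.34 treated, and its change of 1.46 missed the threshold (SE 0.38, adjusted p = 0.073). Trim25, the ubiquitin ligase that acts on the sensor RIG-I, lay below background on all 6 arrays. Among the receptors, kinases and transcription factors, Ifnar2, Ifngr1, Ifngr2, Jak1, Tyk2, Stat3, Stat5a and Irf3 had changes between -0.62 and 0.50. Socs3, a feedback inhibitor, changed by -0.05, whereas Socs2 changed by 1.10 (adjusted p = 0.0514). The adaptors Mavs and Sting1 changed by -0.15 and 0.58 and were not called, and Cgas changed by 0.92 (adjusted p = 0.368). The signalling phosphatase Ptpn6 had the lowest change of the classical lists at -1.22 (adjusted p = 0.291), with 1 treated array below background. Ifitm2, Ptpn2, Pias1, Ddx41, Psme2 and Irgc1 had changes from 0.06 to 0.52 and were not called. Of the peptide-loading genes, Tapbp changed by 1.75 (adjusted p = 0.0698), Erap1 by 1.25 (adjusted p = 0.11) and Calr by -0.06.

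**Figure D2:**
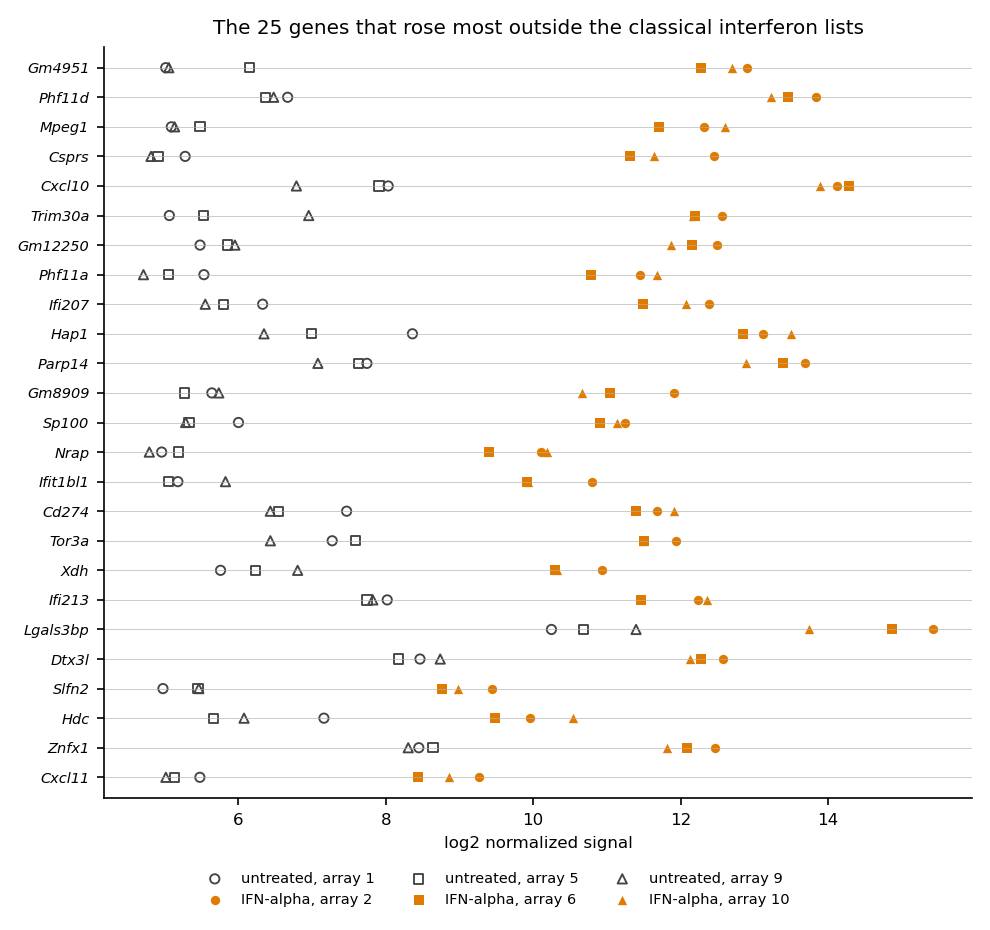
Log2 normalized signal of the 25 genes that rose most outside the classical lists, 1 row per gene, with open symbols for untreated arrays 1, 5 and 9 and filled symbols for treated arrays 2, 6 and 10. In every row the 3 filled symbols lie to the right of the 3 open ones, and the largest gap is that of Gm4951 at 7.22 between the means.

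The 25 genes that rose most outside the classical lists are shown array by array in the plot of their signals. Each kept its call when any 1 of the 6 arrays was left out. Of the 25, 6 belong by name or by RefSeq synonym to families that the classical lists cover: Gm4951 (Ifgga2) and Gm12250 (Irgb10) to the interferon-induced GTPases, Gm8909 (H2-Tw5l) to the MHC class I region, Ifit1bl1 to the Ifit genes and Ifi207 and Ifi213 to the Ifi200 sensors. Where a gene lay below background on all untreated arrays its fold is a lower bound, the treated mean against the mean of the background limits or of its own values where these were higher. Gm4951 had 5.01, 6.15 and 5.05 untreated and 12.90, 12.28 and 12.69 treated, a rise of at least 87.5-fold (adjusted p = 3.04e-08). A second probe of Gm4951 gave a log2 change of 1.97 against 7.22. Gm12250 rose from 5.48, 5.85 and 5.95 to 12.49, 12.16 and 11.88, 85.3-fold (adjusted p = 4.28e-08), with 1 untreated array above background. Ifi207 rose at least 56.0-fold, and all 7 measured genes of the Ifi200 family were raised, with a median log2 change of 4.16.

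Nuclear body and chromatin genes were raised in 13 of 19 measured members, and none fell. The median log2 change was 2.06, or 1.85 with genes at their bound. Gm4951, which is not a chromatin gene by its synonym, was 1 of the 13. Phf11d and Phf11a, neighbouring PHD finger genes, and Csprs, a relative of Sp100, had the next largest changes. Phf11d went from 6.67, 6.37 and 6.48 to 13.84, 13.46 and 13.23, a 128-fold rise (SE 0.28 on the log2 scale, adjusted p = 8.16e-09). Phf11a rose at least 35.1-fold and Csprs at least 49.6-fold. Sp100, a scaffold of PML nuclear bodies, went from 6.0, 5.33 and 5.28 to 11.25, 10.91 and 11.14, at least 30.4-fold (adjusted p = 4.63e-08). Its second probe gave a smaller log2 change, 2.14 against 5.56. Daxx, the histone chaperone of the same bodies, rose 7.54-fold (adjusted p = 1.31e-05). Pml itself rose by 1.85 on the log2 scale, and Sp140, Batf2, Tdrd7, Mitd1, Rbm43 and Nmi by 1.56 to 2.55. Batf3, Bcl3, Senp1, Morc3, Cnp and Etv6 were not called, with changes from -0.58 to 0.57.

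All 25 measured genes for ubiquitin-like conjugation and Trim ligases had a positive change, as 43.2% of all named genes did, and 16 were raised, with a median of 1.90 (1.78 at the bound). They include enzymes that attach Isg15: Uba7, the activating enzyme (log2 change 3.37), and Ube2l6, the conjugating enzyme, which went from 9.12, 8.45 and 8.0 to 12.44, 11.95 and 12.03, a 12.3-fold rise (adjusted p = 2.76e-06). Trim30a, a Trim protein of rodents, went from 5.06, 5.52 and 6.95 to 12.56, 12.19 and 12.17, an 88.1-fold rise (adjusted p = 2.03e-07) with 1 untreated array above background. Its neighbour Trim34a rose 11.5-fold. Dtx3l, a ligase that partners Parp9, rose 14.6-fold, from 8.46, 8.18 and 8.74 to 12.58, 12.27 and 12.13 (adjusted p = 4.89e-07). Lgals3bp, a secreted glycoprotein that the list also holds, was among the brightest of the 25 leading genes at 15.42, 14.87 and 13.75 after treatment, from 10.25, 10.69 and 11.40, a 15-fold rise (adjusted p = 0.000329). Znfx1, a helicase with a zinc finger, rose 12.7-fold. Trim21, Trim30d, Rnf213, Usp25, Fbxw17, Rnf31, Rnf114, Usp12 and Trim26 rose by 1.30 to 3.15 on the log2 scale; the other probes of Trim21 gave 2.17 and 0.48. The call of Trim26 was lost without array 2, 5, 9 or 10 (adjusted p up to 0.131).

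Among ADP-ribosyl transferases 4 of 13 were raised and the list's median was 0.42. Parp14, an enzyme that attaches single ADP-ribose units, went from 7.74, 7.63 and 7.08 to 13.69, 13.39 and 12.89, a 57.2-fold rise (SE 0.47, adjusted p = 3.78e-06), with 1.96 and 2.08 at its other probes. Parp12 rose 8.75-fold, Parp10 5.28-fold and Parp3 2.51-fold. Parp9 and Parp11 had changes of 1.34 and 1.33 that missed the threshold (adjusted p = 0.063 and 0.19). Parp1 and Parp2, which act in DNA repair, had -0.45 and -0.02.

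RNA genes were raised in 6 of 17 (median 0.33). Helz2, a helicase, went from 7.88, 7.42 and 7.30 to 11.15, 11 and 10.99, an 11.4-fold rise (adjusted p = 2.47e-07). Pnpt1, the mitochondrial polynucleotide phosphorylase, rose 9.32-fold with 1 untreated array above background. Adar, which edits adenosine to inosine in double-stranded RNA, rose 3.27-fold (adjusted p = 0.00465). Its other probes gave larger log2 changes of 1.78, 1.95, 3.69 and 4.28, against 1.71. Dcp2, the decapping enzyme, rose 2.26-fold. Azi2 rose 2.27-fold and N4bp1 2.49-fold; without array 2 or array 6 N4bp1 was no longer called (adjusted p up to 0.0624). The cap-binding regulators Eif4ebp1 and Eif4ebp2 had changes of -0.08 and -0.57.

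Chemokines were raised in 7 of 13 measured genes. The list's median log2 change was 1.34, or 0.65 with genes at their bound. Cxcl10, which attracts T cells through Cxcr3, went from 8.03, 7.91 and 6.79 to 14.12, 14.29 and 13.89, a 92.1-fold rise (SE 0.39, adjusted p = 2.19e-07). Cxcl11, a ligand of the same receptor, was below background without IFN-alpha and rose at least 6.42-fold. The monocyte attractants Ccl2 and Ccl7 were already bright and rose 3.52- and 4.26-fold, Ccl7 from 11.55, 11.44 and 11.59 to 13.87, 13.77 and 13.22 (adjusted p = 0.00159). Ccl8 and Cxcl13, also below background untreated, rose at least 1.57- and 1.24-fold. Cxcl13 was lost without any array but array 10 (adjusted p up to 0.13). Ccl5 rose 2.58-fold, a call that was lost without array 1, 2, 5 or 6 (adjusted p up to 0.0756). Cxcl12, Cx3cl1 and Ccl25 had changes of 0.06, 0.26 and -0.02.

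Cytokines and their receptors were raised in 4 of 17 (median 0.28). Il15, which sustains natural killer and memory T cells, went from 5.38, 6.15 and 5.72 to 9.06, 8.80 and 8.83, an 8.84-fold rise (adjusted p = 2.76e-06) with 1 untreated array above background. Of its other probes, 1 gave a log2 change of 2.95 and 1 of -0.07. Il7, a growth factor of lymphocytes, rose at least 3.32-fold, and Il6 rose 4.89-fold with 1 untreated array above background. Il13ra1 rose 2.75-fold; without array 2 its adjusted p was 0.0503.

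On the cell surface 6 of 12 measured genes were raised (median 1.47). Cd274, the checkpoint ligand PD-L1, went from 7.47, 6.55 and 6.43 to 11.69, 11.40 and 11.91, a 28.8-fold rise (SE 0.32, adjusted p = 5.07e-07). The Ly6 genes, which encode surface proteins held by a lipid anchor, rose 12.1-fold (Ly6c1) and 6.50-fold (Ly6e); Ly6e reached 15.77, 15.63 and 15.14. The galectins Lgals9 and Lgals8 rose 6.44- and 3.12-fold, whereas Lgals3 had a change of 0.16. Clec2d, a lectin-like ligand of natural killer cells, rose 4.74-fold. Vcam1, Cd44 and Cd9 had changes from -0.51 to 0.06.

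Cell death genes were raised in 4 of 27, against a list median of 0.11. Mlkl, the executioner of necroptosis, went from 9.54, 9.38 and 9.01 to 12.72, 12.37 and 12.47, a 9.27-fold rise (SE 0.22, adjusted p = 6.42e-07). The inflammatory caspases Casp4 and Casp1 rose 5.97-fold and at least 1.80-fold. Tnfsf10, the death ligand TRAIL, rose 3.06-fold, a call lost without array 2 or 5 (adjusted p up to 0.0973). Gsdmd, the pore-forming target of these caspases, changed by 2.04 and missed the threshold (adjusted p = 0.0854). Ripk3, which activates Mlkl, had -0.01, and Bcl2, Bcl2l1, Mcl1, Bak1, Fas and Fadd had -0.50 to 0.13.

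Lipid and membrane genes were raised in 8 of 22 (median 0.58). Tor3a, an ATPase of the endoplasmic reticulum, went from 7.27, 7.59 and 6.43 to 11.93, 11.51 and 11.48, a 23.3-fold rise (adjusted p = 5.73e-07). Its cofactors Tor1aip1 and Tor1aip2, which lie beside it on chromosome 1, rose by 1.94 and 1.23 on the log2 scale. The apolipoprotein L genes Apol9a and Apol9b rose 8.50- and 7.57-fold, and Apol6 rose at least 2.76-fold. Plscr2 and Stard5 rose by 1.86 and 1.63. Ch25h, which makes an oxysterol, changed by 1.35 and missed the threshold (adjusted p = 0.263).

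Mpeg1, perforin-2, a pore-forming protein best known from macrophages, went from 5.09, 5.48 and 5.13 to 12.32, 11.70 and 12.60. This was a rise of at least 65.5-fold (adjusted p = 3.49e-09). Of the 14 measured genes in the list of lysosome and MHC class II genes only Mpeg1 was raised (7.14%, against 3.53% of all named genes). Of 10 macrophage and leukocyte markers listed, 7 had no named probe. Lyz2 was below background on all 6 arrays, Csf1r was above it on 2 arrays of each group and Cd14 on all; the summed signal of the 2 measured markers was 248 to 350 on untreated and 211 to 280 on treated arrays, and none was called. In bulk RNA, more cells of a type and more RNA per cell cannot be told apart.

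Xdh, the enzyme that makes uric acid, led the metabolic list, in which 2 of 15 genes were raised (median 0.13). It went from 5.76, 6.23 and 6.80 to 10.93, 10.29 and 10.32, a 19.0-fold rise (adjusted p = 1.03e-06) with 1 untreated array above background. The other was Nt5c3, a nucleotidase, at 1.94-fold, which was lost without array 2, 5, 9 or 10 (adjusted p up to 0.136). Slfn2 was the 1 raised gene among 18 Schlafen and growth-restraining genes (5.56%, against 3.53% of all named genes, with a median of 0.09). It rose at least 7.40-fold, from 4.97, 5.45 and 5.46 to 9.44, 8.76 and 8.98 (adjusted p = 4.88e-07), while Slfn3 had -0.54 and the cell cycle inhibitors Cdkn1a and Cdkn2b had 0.24 and 0.21.

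Complement genes were raised in 2 of 14 (median 0.23): Cfb rose 4.23-fold with 1 untreated array above background, and C2, its neighbour on chromosome 17, rose at least 1.91-fold. In the list of NF-kB and adaptor genes 3 of 25 were raised, against a median of -0.06 that changed sign in 5 of 22 other settings. These were the receptors Tlr2 (3.70-fold) and Nod1 (3.22-fold) and the adaptor Myd88 (3.01-fold). Nod1 was lost without array 2, 5, 6, 9 or 10 (adjusted p up to 0.222). The NF-kB inhibitor Nfkbia had -0.67 (adjusted p = 0.11) and Tnfaip3 had 0.35.

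Hap1, Nrap and Hdc stood out among the raised genes of no list. Hap1, a trafficking protein known from neurons as a partner of huntingtin, went from 8.36, 6.99 and 6.35 to 13.12, 12.85 and 13.51, a 60.8-fold rise (SE 0.51, adjusted p = 6.35e-06); its 2 other probes gave log2 changes of 2.21 and 2.63. Nrap, an anchoring protein of heart and skeletal muscle, was below background untreated and reached 10.11, 9.40 and 10.19, at least 13.2-fold higher (adjusted p = 5.35e-08). Of 7 muscle markers listed only Actc1 had a named probe, and it was below background on all 6 arrays. Hdc, which makes histamine from histidine, went from 7.16, 5.66 and 6.08 to 9.96, 9.49 and 10.53, a 13.0-fold rise (adjusted p = 4.88e-05). The groups did not overlap for any of the 3 genes, which holds for each of the 292 raised genes and for 8.87% of all named genes.

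**Figure D3:**
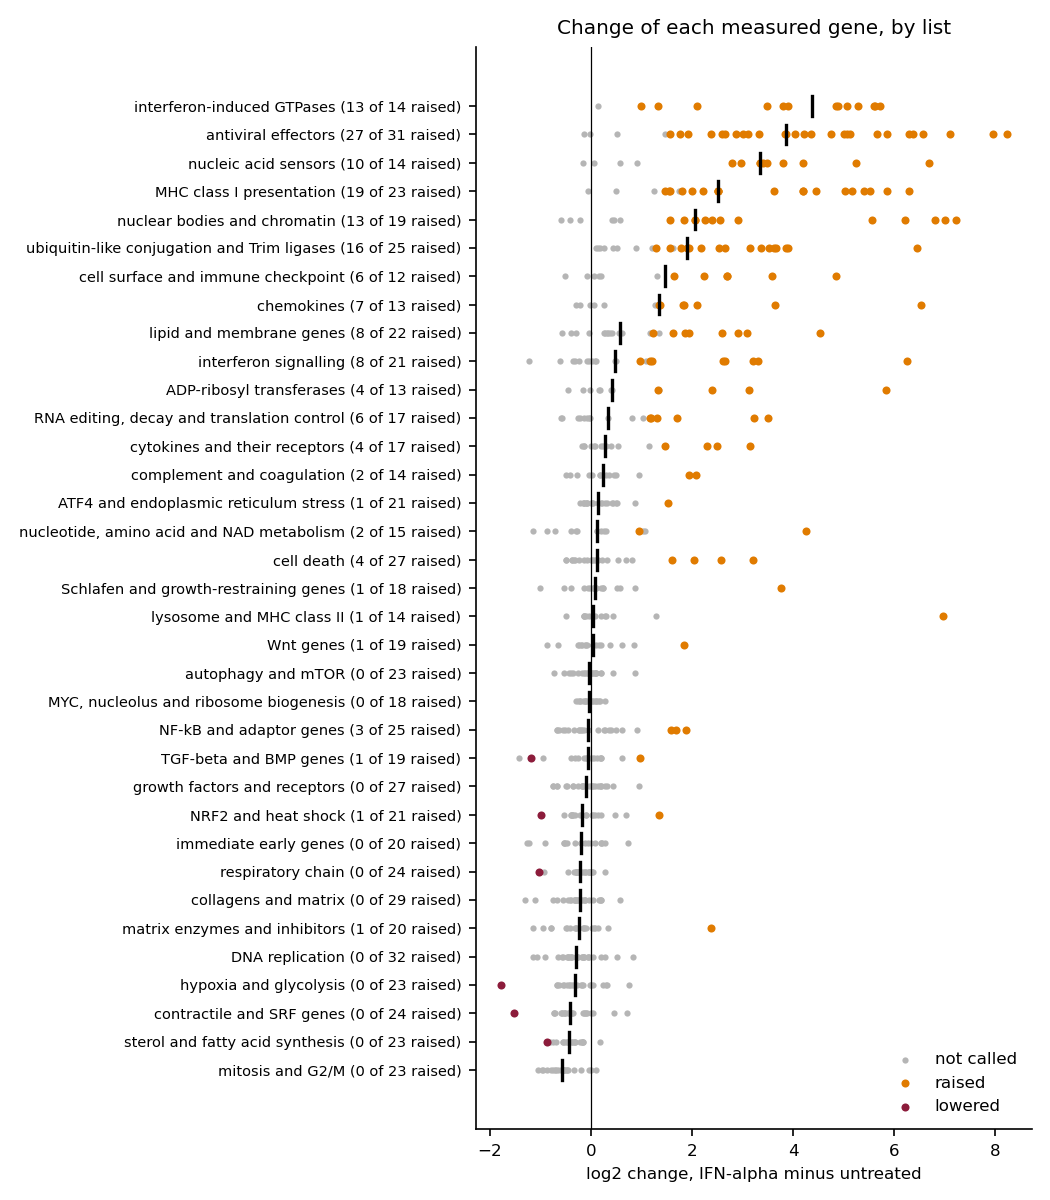
Log2 change of every measured gene in each of the 35 lists, ordered by the list's median, which is the black bar; orange points are raised, dark red lowered and grey not called. The lists with the highest medians are the classical ones at 4.38 and 3.85, and the lowest median is that of mitosis and G2/M at -0.57, where no gene was called.

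Raised genes lay beside each other on the chromosomes. In the order of the 8269 measured genes placed by RefSeq, 110 of 292 raised genes (37.7%) had another raised gene as their nearest measured neighbour on at least 1 side, against 5.38% of genes that were not called and 7.14% of lowered genes. The 110 formed 39 runs. The longest, of 7 genes each, were the Ifi200 genes on chromosome 1, from Ifi214 to Ifi205, and the Oas genes on chromosome 5. A run of 6 on chromosome 11 joined Irgm1, Tgtp1 and Ifi47 with genes between them, and runs of 4 held the Apol genes on chromosome 15, the Gbp genes on chromosome 3, the Ifit genes on chromosome 19 and Trim21, Trim34a, Trim30a and Trim30d on chromosome 7. A run of 4 on chromosome 17 held Psmb9, Tap1, Psmb8 and Tap2, and a run of 3 held Cxcl10, Cxcl11 and Scarb2. Other runs joined genes that are not relatives of each other, such as Rsad2 with Cmpk2, Parp14 with Dtx3l, Rnf31 with Irf9 and Shisa5 with Trex1. Tandem copies can share probe sequence, and how far a probe reads its gene's relatives was not tested.

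**Figure D4:**
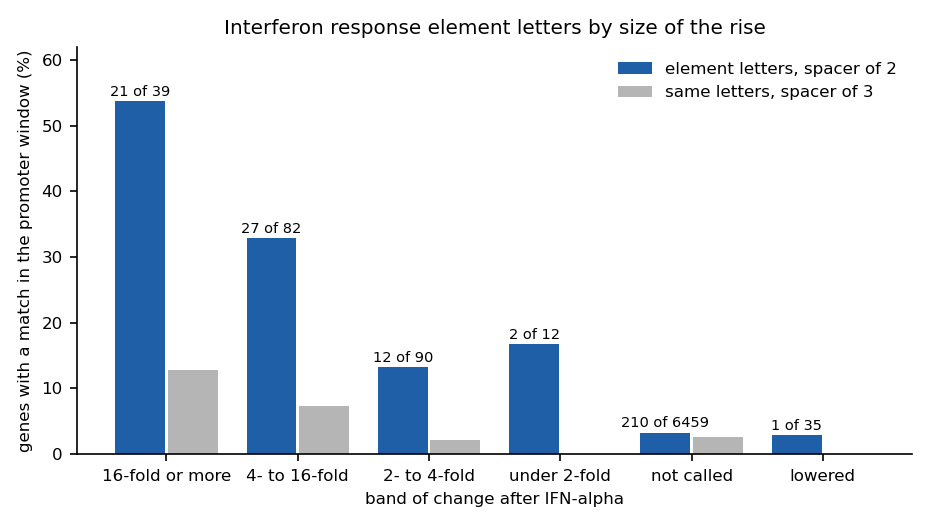
Percent of genes whose 300-base promoter window holds the ISRE letters with the spacer of 2 (blue) or the same blocks with a spacer of 3 (grey), by band of change; numbers over the blue bars are genes with a match of genes with a window. The blue share falls from 53.8% in the highest band to 3.25% in genes not called.

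Promoter windows were searched for the ISRE letters. A RefSeq window was found for 223 of the 292 raised genes, and 62 of these (27.8%) held these letters (GAAA, any 2 bases, GAAA) on either strand, against 3.25% of genes not called, 2.86% of lowered genes (1 of 35) and 3.99% of all 27025 genes in the table. The share was 53.8% (21 of 39) in genes raised at least 16-fold, 32.9% in those raised 4- to 16-fold, 13.3% in those raised 2- to 4-fold and 16.7% (2 of 12) in those raised less. For the same blocks with a spacer of 3 bases the shares were 12.8% in the highest band, 5.83% in all raised genes and 3.17% in the whole table; the longer GAAA repeats that hold both spellings were not separated. Raised genes of the classical lists held the letters in 50.9% of genes with a window (29 of 57), and the other raised genes in 19.9% (33 of 166). The other raised genes include relatives of classical ones, such as Gm12250, Ifit1bl1, Ifi207 and Ifi213. Of the 25 leading genes, 19 had a window and 7 held the letters: Cxcl10, Trim30a, Gm12250, Phf11a, Ifi207, Ifit1bl1 and Ifi213. In raised genes 51.1% of the 88 matches began within the last 100 bases before the start, against 27.1% of the 229 matches in genes not called. These matches came from 62 and 210 genes. They were counted in every window of a gene, so 1 site in overlapping windows counts more than once. A match is a description of letters and not of a bound site.

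The 42 lowered genes fell by 1.77 on the log2 scale at most, and 33 of them fell at least 2-fold. When the fit was repeated without 1 array in turn, 219 of the 292 raised genes kept their call throughout. Of the 42 lowered genes 12 kept their call in all 6 such fits, and 30 lost it in at least 1. The count of lowered genes ranged from 20 to 33 in them, with 20 without array 5, 21 without array 2 and 27 without array 6 or array 9. With median scaling in place of quantile normalization 6 were called, although all 42 kept their direction there.

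**Figure D5:**
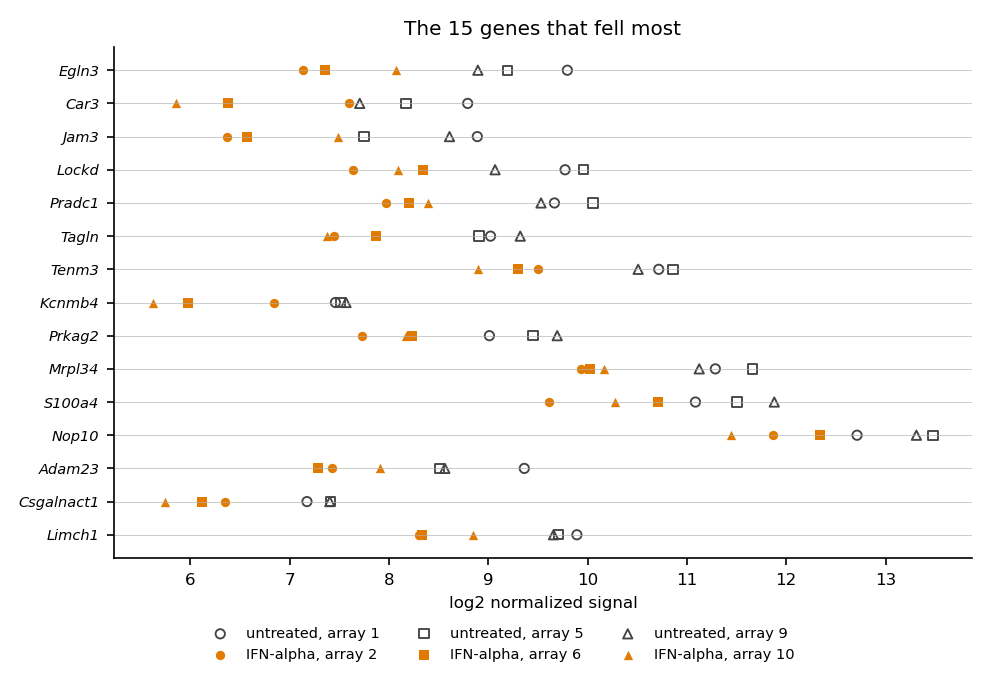
Log2 normalized signal of the 15 genes that fell most, with open symbols for untreated arrays 1, 5 and 9 and filled symbols for treated arrays 2, 6 and 10. In each row the filled symbols lie to the left of the open ones, by 1.77 between the means for Egln3 and by 1.26 for Limch1.

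Egln3, an oxygen-sensing prolyl hydroxylase and itself a target of the hypoxia factor, fell most. It went from 9.80, 9.19 and 8.90 to 7.13, 7.36 and 8.08, 3.42-fold lower (SE 0.30, adjusted p = 0.00371). The other 22 measured genes of hypoxia and glycolysis were not called, and the list's median was -0.31; Egln1 had -0.66 and Ldha -0.55. Lockd, a long non-coding RNA, went from 9.77, 9.96 and 9.07 to 7.64, 8.35 and 8.09, 2.98-fold lower (adjusted p = 0.00723). Tagln, an actin-binding protein of smooth muscle and contractile fibroblasts, went from 9.02, 8.91 and 9.32 to 7.45, 7.87 and 7.37, 2.87-fold lower (adjusted p = 0.00151). Of 24 contractile genes it was the 1 called, with a list median of -0.41; Acta2 had -0.07 and Myl9 -0.70. All 3 genes kept their call whichever array was left out.

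Genes of adhesion and the cell surface among the lowered were Jam3, Tenm3, Adam23, Gja1, Tspan2 and Sirpa. Tenm3, a teneurin that links neighbouring cells, went from 10.72, 10.86 and 10.51 to 9.50, 9.30 and 8.90, 2.76-fold lower (adjusted p = 0.00393). Jam3, a junctional adhesion molecule, went from 8.89, 7.75 and 8.61 to 6.37, 6.57 and 7.49, 3.05-fold lower (adjusted p = 0.0338), and the call was lost without array 1, 2, 6 or 9 (adjusted p up to 0.185). Adam23, a metalloprotease-like surface protein, was 2.41-fold lower, from 9.36, 8.51 and 8.56 to 7.43, 7.29 and 7.91, a call lost without array 1, 2 or 6 (adjusted p up to 0.097). Gja1, the gap junction protein connexin 43, fell by 1.15 on the log2 scale and was lost without array 1, 2, 5, 6 or 9 (adjusted p up to 0.113). Tspan2 fell by 1.24 and Sirpa, the receptor for Cd47, by 0.87. The call of Tspan2 held in all 6 such fits, and that of Sirpa was lost without array 1, 2, 6 or 9 (adjusted p up to 0.119).

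The lowered Mrpl34, Mrps21, Cox7a2, Atp5k and Tfb2m act in mitochondria. Mrpl34, of the large mitochondrial ribosomal subunit, went from 11.29, 11.66 and 11.12 to 9.93, 10.02 and 10.17, 2.49-fold lower (SE 0.20, adjusted p = 0.0017). Mrps21 of the small subunit fell by 1.06 on the log2 scale, and both held without any 1 array. They were 2 of 59 measured genes of that ribosome, whose median change was -0.08. Cox7a2, Atp5k and Tfb2m, for respiration and mitochondrial transcription, fell by 1.04, 1.18 and 0.99, each lost in 3 or more of the 6 fits (adjusted p up to 0.135). A grouping of the NADH dehydrogenase, cytochrome oxidase and ATP synthase subunits, made after these values were seen, held 58 measured genes, of which 2 were called and 49 had a negative change (56.8% of all named genes did), with a median of -0.22. The cytosolic ribosome, grouped in the same way, had 23 of 30 negative, a median of -0.18 and no call. Nop10, a protein of the small nucleolar particles that modify ribosomal RNA, went from 12.71, 13.48 and 13.31 to 11.87, 12.34 and 11.45 (adjusted p = 0.0491) and was lost without array 2, 5, 9 or 10 (adjusted p up to 0.235).

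The remaining leading falls were of varied function. Car3, a carbonic anhydrase, went from 8.79, 8.17 and 7.71 to 7.60, 6.38 and 5.86, with SE 0.38 and adjusted p = 0.0466, and was lost without array 1, 5, 6 or 10 (adjusted p up to 0.191). Pradc1, a secreted glycoprotein, went from 9.67, 10.05 and 9.53 to 7.97, 8.20 and 8.39 and was lost without array 2 or 5 (adjusted p up to 0.0571). Kcnmb4, a subunit of potassium channels, went from 7.46, 7.51 and 7.57 to 6.84, 5.98 and 5.62, and lost its call without any array but array 2 (adjusted p up to 0.153). Only 1 of the treated arrays was above background for it. Prkag2, a regulatory subunit of the kinase AMPK, went from 9.01, 9.45 and 9.69 to 7.73, 8.23 and 8.17 (adjusted p up to 0.106 without array 2, 5 or 9). S100a4, 1 of the 10 fibroblast markers, went from 11.09, 11.50 and 11.88 to 9.61, 10.71 and 10.27 (adjusted p up to 0.219 without array 2, 5, 9 or 10). Csgalnact1, which starts chondroitin sulfate chains, went from 7.17, 7.42 and 7.40 to 6.35, 6.11 and 5.74 and held throughout, again with 1 treated array above background. Limch1, an activator of non-muscle myosin, went from 9.89, 9.71 and 9.66 to 8.30, 8.34 and 8.85 and held only without array 10 (adjusted p up to 0.154).

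Of the smaller falls, Sox11, a transcription factor of progenitor cells, went from 11.61, 11.60 and 11.70 to 10.41, 10.52 and 10.36 (2.31-fold, SE 0.18, adjusted p = 0.00146) and Id3, a target of BMP signalling, from 9.65, 9.41 and 9.45 to 8.42, 8.38 and 8.18 (2.26-fold, adjusted p = 0.00776). Both held without any 1 array, as did Trappc1 and Ccdc167; the other probe of Sox11 gave a log2 change of -0.39. Dtymk, which makes the thymidine precursor of DNA, fell by 1.19 and was lost without array 5 (adjusted p 0.057). Mt1, a metallothionein, fell by 0.98, near the top of the scale, and was lost without array 2 (adjusted p 0.052). Man1a, Nipal1 and Ccsap were below background on all treated arrays, at least 1.72-, 1.24- and 1.53-fold lower. Dbi, Dad1, Lsm6, Pcyox1l, Tdrkh, Smim11, Pmm1, Pros1, Rps6ka5, S100a13 and Tm7sf2 fell by 0.87 to 1.13. Each of these 11, and Man1a, Nipal1 and Ccsap, lost its call in at least 2 of the 6 fits, with adjusted p up to 0.218.

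No gene of the mitosis and DNA replication lists was called, which is near the shares over all named genes (3.53% raised and 0.507% lowered). Over all named genes 56.8% had a negative and 43.2% a positive change. In the list of mitosis and G2/M genes 22 of 23 had a negative change, with a median of -0.57 that stayed between -0.71 and -0.45 in the 22 other settings. The largest were Cdc25b, the phosphatase that starts mitosis, at -1.04 (adjusted p = 0.0553), Ttk at -0.97 and Birc5 at -0.94, while Tpx2 had 0.09. DNA replication genes had a median of -0.28 with 27 of 32 negative, and 0 of 32 were called. Genes of sterol and fatty acid synthesis had a median of -0.44 with 22 of 23 negative; Tm7sf2, a sterol reductase, was the 1 lowered gene, and Elovl6, Ebp and Dhcr7 had -0.87, -0.81 and -0.74 without a call. Genes of a list are measured on the same arrays and are not independent, and the median of all named genes was -0.05. Genes of MYC and ribosome biogenesis had a median of -0.05, which changed sign in 6 of 22 other settings.

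Matrix and signalling genes were mostly not called. Of all named genes 3.53% were raised and 0.507% lowered, so counts of 0 or 1 in lists of this size are near those shares. None of 29 collagen and matrix genes and none of 27 growth factors and receptors was called (medians -0.22 and -0.10; the second changed sign in 4 of 22 other settings). Mmp13, a collagenase, was the exception among 20 matrix enzymes and inhibitors, rising from 8.05, 6.86 and 6.83 to 9.76, 9.13 and 10.01 (5.23-fold, adjusted p = 0.0133). Ccn5, counted with the Wnt genes, rose 3.60-fold and Ltbp1, which holds latent TGF-beta in the matrix, 1.95-fold. All 3 calls were sensitive to single arrays, Mmp13 to arrays 2, 5, 9 and 10 (adjusted p up to 0.0775), Ccn5 to all but array 9 (up to 0.173) and Ltbp1 to all but array 6 (up to 0.124). Ddit3, a transcription factor of endoplasmic reticulum stress, rose 2.89-fold (lost without array 2, 5 or 9, adjusted p up to 0.0745) and was the 1 called gene of its 21. Hmox1, which degrades heme, rose 2.55-fold (lost without array 1 or 2, adjusted p up to 0.0787). Autophagy and mTOR genes (0 of 23) and immediate early genes (0 of 20) had medians of -0.04 and -0.19, which changed sign in 2 and 3 of 22 other settings, and the respiratory chain -0.21 with Cox7a2 as the 1 called gene of 24.

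The response was set beside that of Rictor-/- cells only for the 154 named genes, with the difference of the 2 log2 changes tested in the same fit. Over all named genes the change was smaller in Rictor-/- cells in 0.664% and larger in 0.0362%. Of the 154 genes, 23 had a smaller and 3 a larger change in Rictor-/- cells. They were named largely by their change on the Rictor+/+ arrays, and the difference uses the same arrays. Naming large rises favours smaller changes in Rictor-/- cells, and naming genes not called favours larger ones. The filter on background also kept genes that were bright in a single group, such as Slfn2. The split of 23 and 3 therefore cannot be read as a result about genotype. Background level and genotype coincide in part, since 4 of 6 Rictor-/- arrays and 2 of 6 Rictor+/+ arrays had low background, and genotype and line cannot be told apart. For 12 of the 26, Sp100 among them, no untreated array of either genotype was above background, so the size of the difference is measured against background. The treated arrays of Sp100 had a mean of 11.10 in Rictor+/+ and 5.58 in Rictor-/- cells, where 1 of 3 arrays was above background (adjusted p of the difference 3.21e-05). Those of Slfn2 had means of 9.06 and 5.33 and those of Xdh 10.51 and 5.01, and both genes were below background on all 6 Rictor-/- arrays. The treated arrays of Mpeg1 had means of 12.21 and 7.54. Phf11d, above background on all arrays, changed by 7.0 and 3.23. For many others no difference was detected: Cxcl10 changed by 6.53 and 4.67 (adjusted p of the difference 0.423), Trim30a by 6.46 and 5.55 (0.994) and Ube2l6 by 3.62 and 3.61 (0.999). The 3 larger changes were in Trim25, Ifi27 and Ifitm3, genes of the classical lists that were not called in Rictor+/+ cells. For Ifitm3 and Ifi27 the untreated means were 14.19 and 11.70 in Rictor+/+ against 9.80 and 9.17 in Rictor-/- cells. The treated means were 15.65 and 11.56 against 14.89 and 11.83. For Ifitm3 the treated Rictor+/+ signals were near the top of the scale, where saturation was not tested.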

How the data were processed

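Total RNA of 12 samples was measured on Illumina mouse BeadChips, with 3 arrays in each of 4 groups. The authors deposited probe intensities (linear scale, neither background-subtracted nor normalized as far as the values show, without detection p-values) for 45281 probes, and log2 values for 17003 of them; BeadStudio is named in the submitters' processing notes. How the deposited log2 values were normalized and how their probes were chosen is not given in the sources used here; within each array they ranked probes as the intensities did (Spearman correlation 0.9978 or higher). Of the 17003 probes, 14461 named 1 gene, 5 several and 2537 none; 14445 gene identifiers matched RefSeq. Probes outside that table have no gene name here.

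From the intensities, background was taken as the mode of each array, since no negative controls were used here. Intensities were corrected by normexp (offset 16), quantile-normalized and put on the log2 scale. Quantile normalization gives all arrays 1 distribution, so a shift common to all genes cannot appear. A probe was above background at an upper-tail p under 0.01 and was kept when above on 3 or more arrays. The brightest kept probe stood for a gene. limma 3.58.1 (R 4.3.3) fitted the 4 groups over 12 arrays (lmFit, eBayes), with Benjamini-Hochberg adjustment over 17268 features, and a call is an adjusted p under 0.05. The code was tested on simulated data. The number of arrays limits the precision: the median standard error was 0.283 on the log2 scale. A bound compares the mean of the bright group with the mean, over the dim group's arrays, of the higher of the array's lowest signal above background and the probe's own signal.

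The text names the 25 largest rises outside the classical lists, the 15 largest falls and every other fall, members of the lists and the classical members not called. Other list members that were not called are named for contrast and were chosen after their values were seen. Members, lists and this rule were chosen with earlier results of these data known. The background level was a block in an alternative fit. Alternatives covered scaling, background correction, filters, arrays left out, array weights and the deposited log2 values.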

Additional observations from a re-analysis of the deposited data

Results flagged for a closer look

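A total of 26 named genes were singled out because their change after IFN-alpha differed between the genotypes. This was tested as the difference of the 2 log2 changes in the limma fit (adjusted over all features). The genes were named largely by their change on the same Rictor+/+ arrays, which favours such differences. The filter also kept genes that were bright in a single group, which favours them too. Phf11a, Slfn2, Cxcl11 and Casp1 passed it only through the 3 treated Rictor+/+ arrays. Groups of 3 arrays are too small for a test of single outlying arrays. In Rictor-/- arrays 6 of the 154 named genes examined in this way differed while lying below background there in both groups, so that their log2 changes in Rictor-/- cells are those of background: Phf11a (adjusted p = 4.2e-05), Slfn2 (0.00013), Xdh (0.000297), Cxcl11 (0.000298), Il6 (0.0144) and Casp1 (0.0235).

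For 12 genes (Mpeg1, Sp100, Phf11a, Slfn2, Nrap, Gm4951, Cxcl11, Csprs, Mndal, Oas2, Ifi207 and Casp1) no untreated array of either genotype was above background, so the size of their differences depends on the background and they have no order. The change was smaller in Rictor-/- cells in Phf11a (difference -5.48), Sp100 (-5.32, adjusted p = 3.21e-05), Csprs (-5.08, 0.00039), Gm4951 (-4.61, 0.000298), Mpeg1 (-4.57, 3.21e-05) and Oas1g (-4.49, 3.21e-05). Oas2 differed by -4.21 (0.00127), Gm12250 by -4.15 (0.00039), Ifit1bl1 by -4.12 (0.00774), Ifi213 by -3.98 (0.00013), Phf11d by -3.77 (0.000332), Nrap by -3.76 (0.000186), Mndal by -3.50 (0.000495) and Ly6c1 by -3.30 (0.00388). Psmb9 differed by -3.20 (0.00161), Ifi205 by -2.77 (0.00204), Ifi207 by -2.74 (0.00425) and Znfx1 by -2.25 (0.0147). Ifi213 and Ly6c1 were above background on all Rictor-/- arrays and changed there by 0.18 and 0.29.

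The change was larger in Rictor-/- cells for Ifitm3 (difference 3.63, adjusted p = 0.00561), Ifi27 (2.80, 0.00247) and Trim25 (2.46, 0.000563). The untreated levels differed as well: for Ifitm3 they were 14.19 in Rictor+/+ and 9.80 in Rictor-/- cells, with treated levels of 15.65 and 14.89, and for Ifi27 they were 11.70 and 9.17, with treated levels of 11.56 and 11.83. All 6 Rictor-/- arrays were above background for these 3 genes, whereas no Rictor+/+ array was above it for Trim25. Trim25 thus passed the filter through Rictor-/- arrays alone. Array 12, of treated Rictor-/- cells, had the lowest total signal (21292300). Its part in these differences was not tested.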

How the results depend on the processing

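No paired analysis was run, because the labels state no pairing between arrays. The array numbers run in order through the 4 groups, and a fit with such sets as blocks was not run. All 292 raised and 42 lowered genes kept their direction under each of 22 alternatives, and the raised count stayed within 1.5 times of 292 except between the arrays of low background (122) and with array weights (489). The lowered count moved by more: 6 with median scaling, 69 without background correction, 20 with only the 6 Rictor+/+ arrays, 10 among arrays of high background, 3 among those of low background and 287 with array weights. Leaving out 1 Rictor+/+ array gave 228 to 269 raised and 20 to 33 lowered genes. Raised genes were 87.4% of calls, against 97.4% with median scaling, 97.6% among arrays of low background and 63.0% with array weights. An alternative chosen after seeing the data, without arrays 1 and 10, gave 235 raised and 17 lowered genes, and another, without array 12, gave 324 and 55. The settings with fewer arrays estimate the spread from fewer arrays; for the others the cause was not tested. Genes near background are limited by signal: for 62 raised genes only a bound on the fold can be given. Settings were otherwise fixed beforehand, with earlier results of these data known.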

Other observations

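Some raised genes are known mainly from germ cells; they were picked after their values were seen and no test is attached to the grouping. Meiob, which acts in meiotic recombination, was below background on the 3 untreated arrays and rose at least 3.40-fold (adjusted p = 1.88e-06, limma). Piwil4, a Piwi protein that binds small RNAs in the germ line, rose at least 3.49-fold (adjusted p = 8.27e-07). Prm1, a protamine that packs sperm DNA, lies next to the raised Socs1 in the order of measured genes and rose at least 1.87-fold, and Meikin, a kinetochore protein of meiosis, at least 1.43-fold. Spink2 and Tdrd7 were above background untreated and rose by 2.50 and 2.55 on the log2 scale. Only raised genes were picked, so the direction of germ cell genes as a group is not shown. Tdrkh, a Tudor domain gene like Tdrd7, was lowered (log2 change -1.10), a call lost without array 1, 2, 5 or 6.

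Of the 8991 tested probes with no gene name in the table used here, 75 were raised and 12 lowered.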
